A study of Mus musculus with 24 samples.

Results

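The contractile actin and smooth muscle genes are 9 genes that code for the actins, myosin subunits and actin-binding proteins of smooth muscle and of contractile connective tissue cells: Acta1, Acta2, Actg2, Tagln, Cnn1, Myh11, Myl9, Tpm1 and Tpm2. They were taken by name, through the Ensembl identifiers of the count table, which gave 9 of its 54232 rows, and all 9 were among the 16592 genes that passed the filter on low counts. They were followed here in osteoblasts, the bone-forming cells, cultured from the calvariae (skull bones) of newborn mice that had been pooled. The groups were a high bone mass (HBM) line and wild type (WT), each sampled in the course of differentiation, on days 0, 10, 15 and 21. Each of the 8 groups held 3 libraries of polyadenylated RNA, 1 from each of the batches that the labels number 18, 19 and 21. The labels give neither the mutation of the HBM line nor the strain, and by its title the study is about the processing of the procollagen C-propeptide. Each library stands for a pool of animals, so differences between single mice are not seen. In bulk RNA of this kind, fewer cells of a type and less RNA per cell cannot be told apart.

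Smooth muscle contracts when myosin, whose heavy chain is Myh11, pulls on filaments of the smooth muscle actins Acta2 and Actg2. Phosphorylation of the myosin regulatory light chain, Myl9, by the kinase Mylk starts the contraction, and tropomyosin (Tpm1, Tpm2), calponin (Cnn1) and transgelin (Tagln) lie along the actin filament. Many of these genes are activated by serum response factor (Srf), which binds a short element named the CArG box together with myocardin or the related MRTF proteins. MRTF proteins enter the nucleus when free actin falls. Acta2 and Tagln are also switched on in cultured fibroblasts and other mesenchymal cells on stiff surfaces, and in mice Acta2 marks progenitor cells of the osteoblast lineage.

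The libraries held 28039095 to 46987734 counts. The first principal component, 55.9% of the variance, parted day 0 from the later days, and the second, 15.6%, parted batch 21 from the others. Xist, a transcript of female cells, was at 0 to 0.0328 CPM (the reads of a gene relative to the TMM-scaled size of its library) in batch 21 and at 279 to 528 CPM in batch 18. Batch 19 had 177 to 246 CPM of it in HBM and 18.0 to 41.7 CPM in WT, so Xist differed between batches and, within batch 19, between genotypes. The day 0 libraries of batch 19 also stood apart in the cartilage collagen Col2a1, with 8774 CPM in HBM and 15862 CPM in WT, against 383 to 3790 CPM in the other 22 libraries. Of 8 osteoblast markers, Col1a1, Spp1, Runx2 and Sp7 were at 17992, 242, 55.2 and 22.5 CPM or more in every library. The markers of mature osteoblasts and osteocytes Ibsp, Bglap and Dmp1 were near 0 on day 0, at 0.364 to 0.491, 0.0519 to 0.166 and 0.382 to 0.727 CPM in HBM and at 0.136 to 0.278, 0.0853 to 0.222 and 0.364 to 1.36 CPM in WT, and Alpl was there at 0.441 to 12 CPM in HBM and 1.41 to 28.2 CPM in WT.

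In the mm10 build the actin genes lie at chr8:123891769-123894751 (Acta1, ENSMUSG00000031972), chr19:34241090-34255590 (Acta2, ENSMUSG00000035783) and chr6:83512905-83536265 (Actg2, ENSMUSG00000059430), all on the minus strand. Of the filament-binding proteins, Tagln (ENSMUSG00000032085) is at chr9:45929619-45936058 and Tpm1 (ENSMUSG00000032366) at chr9:67022590-67049406, both on the minus strand, and Cnn1 (ENSMUSG00000001349) is at chr9:22099216-22109630 on the plus strand. Tpm2 (ENSMUSG00000028464) is at chr4:43514711-43523765, minus. The myosin heavy chain gene Myh11 (ENSMUSG00000018830) is at chr16:14194535-14291372, minus, and the light chain gene Myl9 (ENSMUSG00000067818) at chr2:156775420-156781658, plus. Tagln overlaps 2 genes of the opposite strand: 62.4% of its exon bases lie in exons of the antisense transcript Gm48529, with 50 to 99 counts a library, and 5.43% in those of the protease gene Pcsk7, with 888 to 1805 counts. Tagln itself had 18643 to 62238 counts. Whether the counting used strand is not given in the sources used here, so the Tagln level carries that uncertainty.

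Promoter sequences from RefSeq (build GRCm38.p6, 250 bases before to 50 after the start) were matched for 6 of the 9 genes: Acta1, Acta2, Cnn1, Myl9, Tpm1 and Tpm2. They were searched for the CArG box and for a near form with 1 G or C among its inner bases. Only the strand of the gene was searched, since a match to either form is also a match on the other strand. A CArG box was found in 2 of the 6, against 1.63% of 32851 promoters of the same length, and either form in 3 of the 6, against 9.98%. These 3 promoters are shown because they carry the element through which Srf is known to act on such genes. Capitals mark the boxes, and each sequence runs 5′ to 3′ on the strand of the gene.
Acta1, chr8:123894726-123895025, minus strand: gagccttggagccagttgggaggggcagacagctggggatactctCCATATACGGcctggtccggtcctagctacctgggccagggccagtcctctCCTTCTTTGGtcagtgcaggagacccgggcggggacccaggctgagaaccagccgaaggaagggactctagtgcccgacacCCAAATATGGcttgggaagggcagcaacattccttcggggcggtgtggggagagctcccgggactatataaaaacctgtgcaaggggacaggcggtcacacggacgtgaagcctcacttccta
Acta2, chr19:34255324-34255623, minus strand: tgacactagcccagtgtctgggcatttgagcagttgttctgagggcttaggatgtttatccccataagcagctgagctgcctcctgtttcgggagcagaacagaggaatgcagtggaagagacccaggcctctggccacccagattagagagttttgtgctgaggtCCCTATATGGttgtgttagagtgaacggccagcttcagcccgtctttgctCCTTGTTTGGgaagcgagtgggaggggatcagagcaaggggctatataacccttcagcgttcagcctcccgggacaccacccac
Myl9, chr2:156775214-156775513, plus strand: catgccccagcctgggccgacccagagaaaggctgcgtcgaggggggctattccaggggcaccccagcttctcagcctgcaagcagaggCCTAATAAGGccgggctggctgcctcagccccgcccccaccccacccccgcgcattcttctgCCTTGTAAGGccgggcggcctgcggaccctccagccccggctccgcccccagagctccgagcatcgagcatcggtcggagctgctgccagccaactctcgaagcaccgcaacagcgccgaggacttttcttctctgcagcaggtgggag
In Acta1 the box CCAAATATGG lies 73 to 64 bases before the start and the near forms CCATATACGG and CCTTCTTTGG at 205 to 196 and 154 to 145 bases. In Myl9 the box CCTAATAAGG lies 161 to 152 bases before the start, with the near form CCTTGTAAGG at 99 to 90 bases. Acta2 held only the near forms, CCCTATATGG at 84 to 75 bases and CCTTGTTTGG at 34 to 25 bases. The letters of neither form are in these windows of Cnn1, Tpm1 and Tpm2. A match is a description of the sequence and does not show that the factor binds there.

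The 9 genes spanned a wide range of levels. Per kilobase of exon, Acta2, the smooth muscle α-actin, was the highest with a mean of 949 ± 222 CPM per kilobase (SD over the 24 libraries). It was followed by Tagln at 482 ± 155, Myl9 at 353 ± 64.0 and Tpm1 at 203 ± 38.2 CPM per kilobase. Tpm2 was at 138 ± 31.7, Actg2, the γ-actin of visceral smooth muscle, at 101 ± 34.8 and Cnn1 at 42.6 ± 20.3 CPM per kilobase. Myh11, the most specific smooth muscle marker of the set, was at 3.14 ± 2.45 and Acta1, the actin of skeletal muscle, at 1.92 ± 1.13 CPM per kilobase. The library ranges of each pair of neighbours in this order overlapped except those of Cnn1, 18.5 to 109.6, and Myh11, 0.539 to 8.90 CPM per kilobase. By mean CPM over all genes of the table Acta2 ranked 28, Tpm1 56 and Tagln 95, whereas Myh11 ranked 6857 and Acta1 11814. Acta1 rested on 32 to 284 counts a library, so its values carry more counting error than those of Acta2, with 48758 counts or more.

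**Figure D1:**
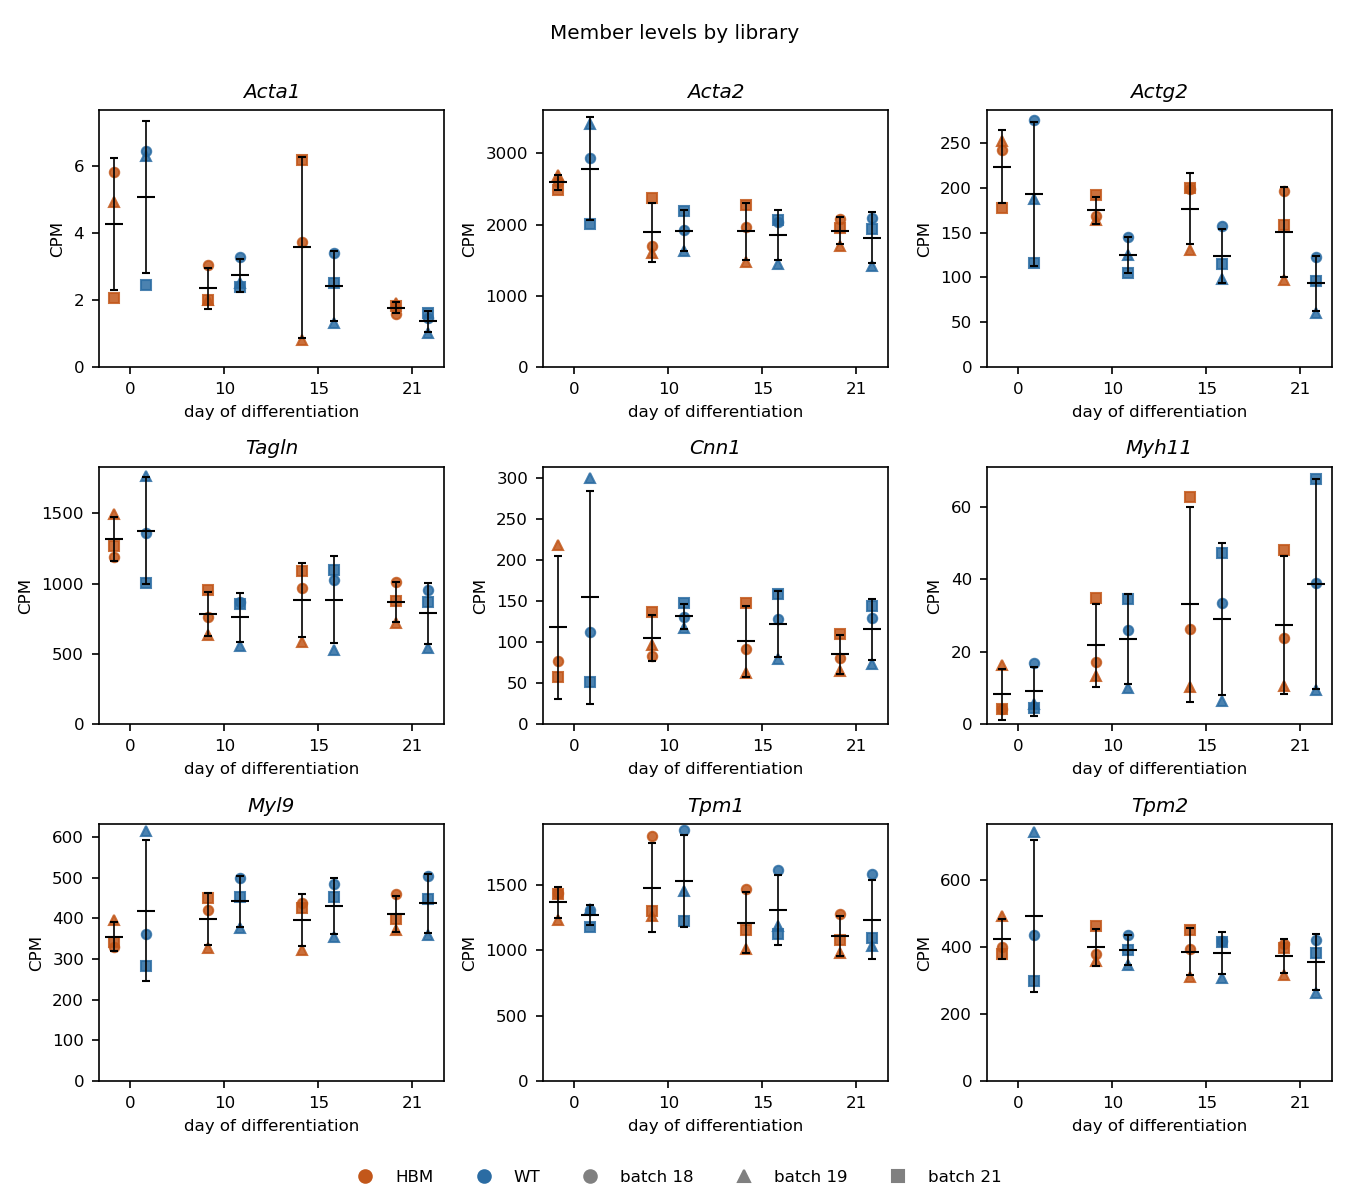
CPM of each gene (vertical axis, from 0) by day of differentiation (horizontal axis), with HBM libraries in orange left of WT libraries in blue, a marker shape for each batch, and the mean ± SD of 3 libraries in black. Tagln is higher on day 0 than on day 10 in every library of both genotypes, and the triangles of batch 19 change from mostly the highest on day 0 to mostly the lowest later.

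Day 10 was compared with day 0, in each genotype. In HBM 0 of the 9 genes passed edgeR's quasi-likelihood test, 1 had an unadjusted p under 0.05 (Tagln), and DESeq2 called 0. In WT 1 passed by either tool: Tagln fell. Over all genes tested, 26.5% passed in HBM and 26.2% in WT by edgeR, and 27.4% and 28.3% by DESeq2, so the members' counts are not above the background. Over the 9, the median log2 change was -0.16 in HBM and -0.34 in WT, beside 0.00 in HBM and -0.02 in WT over all genes. Without batch 19, in a fit added after the data had been seen, the median of the 9 was of the opposite sign, 0.12 in HBM and 0.17 in WT. With each culture as a block, 1 of the 9 passed in HBM and 2 in WT, against 38.2% and 38.5% of all genes. Throughout, a culture stands for the libraries of the same genotype and batch number. The labels do not say outright that the same batch number on different days is the same culture, and in WT batch 19 the Y-linked Ddx3y was at 22.2 CPM on day 0 but at 55.6 to 62.8 CPM on later days.

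Tagln codes for transgelin, an actin cross-linker of smooth muscle and of fibroblasts that become contractile. HBM libraries had 761, 638 and 954 CPM on day 10, against 1191, 1494 and 1268 CPM on day 0, in the order of batches 18, 19 and 21. WT libraries had 869.6, 556 and 854 CPM on day 10, against 1362, 1769 and 1004 CPM on day 0. Every day 10 library was below every day 0 library of its genotype. Here and for the other members, the share of all genes without overlap was not counted. The log2 change was -0.86 ± 0.30 (SE) in WT, a fold of 0.551, with an adjusted p of 0.0435. In HBM it was -0.75 ± 0.30 with an adjusted p of 0.0744, and it passed when each culture was a block (-0.79 ± 0.28, adjusted p = 0.0365). The WT call did not hold up to leaving out single libraries: the adjusted p was over 0.05 in 5 of the 6 fits that left 1 of them out. Its log2 change was -0.87 without day 0 of batch 18 (adjusted p = 0.0786), -0.97 without day 10 of batch 18 (0.0652) and -0.95 without day 10 of batch 21 (0.0643), no smaller than with all libraries. It was -0.64 without day 0 of batch 19 (0.163) and -0.68 without day 10 of batch 19 (0.169). Without all batch 19 libraries the WT change was -0.46 with an adjusted p of 0.133. Within cultures day 10 was the lower in 6 of 6, with log2 ratios of -0.65, -1.23 and -0.41 in HBM and of -0.65, -1.67 and -0.23 in WT, so batch 19 had the largest difference in either genotype.

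Acta2, the actin that defines myofibroblasts, had 1696, 1603 and 2366 CPM on day 10 in HBM, against 2592, 2694 and 2488 CPM on day 0. In WT it had 1923, 1625 and 2193 CPM on day 10, against 2938, 3413 and 2002 CPM on day 0. The days did not overlap in HBM and overlapped in WT, where batch 21 was higher on day 10. The log2 change was -0.46 ± 0.22 in HBM (adjusted p = 0.142) and -0.54 ± 0.23 in WT (adjusted p = 0.0825). In WT it passed when each culture was a block (-0.56 ± 0.21, adjusted p = 0.0491) and without the day 0 library of batch 21 (-0.73, adjusted p = 0.0197). From day 10 on the group means lay close together, at 1888 ± 416, 1906 ± 402 and 1914 ± 193 CPM in HBM on days 10, 15 and 21 and at 1914 ± 284, 1850.0 ± 351 and 1816 ± 354 CPM in WT (SD, n = 3 each).

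The other actins had values of the same sign that did not pass. Actg2 had 168, 164 and 192 CPM on day 10 in HBM, against 242, 252 and 177 CPM on day 0, and 145, 124 and 105 CPM on day 10 in WT, against 276, 188 and 116 CPM on day 0. Its log2 change was -0.36 ± 0.31 in HBM (adjusted p = 0.417) and -0.63 ± 0.31 in WT (adjusted p = 0.142), and in WT it passed without the day 0 library of batch 21 (-0.89, adjusted p = 0.0332). Acta1 was lower on day 10 in 6 of 6 cultures, with log2 changes of -0.86 ± 0.54 in HBM (adjusted p = 0.248) and -0.89 ± 0.53 in WT (adjusted p = 0.228). In batch 21 these differences were -0.04 in HBM and -0.03 in WT.

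The myosin genes and calponin did not pass, and in each of them the batches had values of both signs in at least 1 genotype. Myh11 had 17.1, 13.3 and 34.9 CPM on day 10 in HBM, against 4.10, 16.4 and 4.25 CPM on day 0. In WT it had 25.9, 10.1 and 34.5 CPM on day 10, against 16.9, 5.66 and 4.56 CPM on day 0. It was higher on day 10 in 5 of 6 cultures, the exception being HBM batch 19, with log2 changes of 1.40 ± 0.87 in HBM (adjusted p = 0.251) and 1.37 ± 0.87 in WT (adjusted p = 0.257). Without batch 19 the HBM change was 2.66 with an adjusted p of 0.0286, in a fit that called 15.9% of all genes.

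Myl9, the light chain that Mylk phosphorylates, had 419, 326 and 450.2 CPM on day 10 in HBM, against 329, 395 and 341 CPM on day 0. In WT it had 499, 375 and 451 CPM on day 10, against 361, 613 and 282 CPM on day 0. Batches 18 and 21 were thus higher on day 10 and batch 19 lower in either genotype. The log2 change was 0.17 ± 0.23 in HBM (adjusted p = 0.62) and 0.08 ± 0.23 in WT (adjusted p = 0.829), and without batch 19 it was 0.56 in WT with an adjusted p of 0.0317, where 13.5% of all genes passed.

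Cnn1, calponin, an inhibitor of the myosin motor on actin, showed the batch split most plainly. It had 83.4, 96.0 and 137 CPM on day 10 in HBM, against 77.4, 218 and 57.7 CPM on day 0, and 131, 117 and 147 CPM on day 10 in WT, against 113, 299.7 and 50.8 CPM on day 0. The log2 ratio of day 10 to day 0 was -1.19 in HBM and -1.36 in WT in batch 19, but 1.25 in HBM and 1.54 in WT in batch 21, with batch 18 between them at 0.11 in HBM and 0.22 in WT. The fitted changes of -0.16 ± 0.53 in HBM (adjusted p = 0.849) and -0.23 ± 0.53 in WT (adjusted p = 0.778) lie between those of the batches.

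The tropomyosins, which stabilise the actin filament and gate its contact with myosin, did not pass. Tpm1 had 1871, 1265 and 1301 CPM on day 10 in HBM, against 1442, 1231 and 1429 CPM on day 0, and 1917, 1455 and 1225 CPM on day 10 in WT, against 1308, 1316 and 1179 CPM on day 0. It was higher on day 10 in 5 of 6 cultures, and the fitted change was 0.11 ± 0.22 in HBM (adjusted p = 0.729) and 0.27 ± 0.22 in WT (adjusted p = 0.366). Tpm2 had 378, 359.5 and 462 CPM on day 10 in HBM, against 402, 492 and 379 CPM on day 0, and 435, 346 and 392 CPM on day 10 in WT, against 437, 744 and 298 CPM on day 0. As for Cnn1, batch 19 was lower on day 10 and batch 21 higher in either genotype, and the fitted change of Tpm2 was -0.09 ± 0.26 in HBM (adjusted p = 0.833) and -0.34 ± 0.26 in WT (adjusted p = 0.352).

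**Figure D2:**
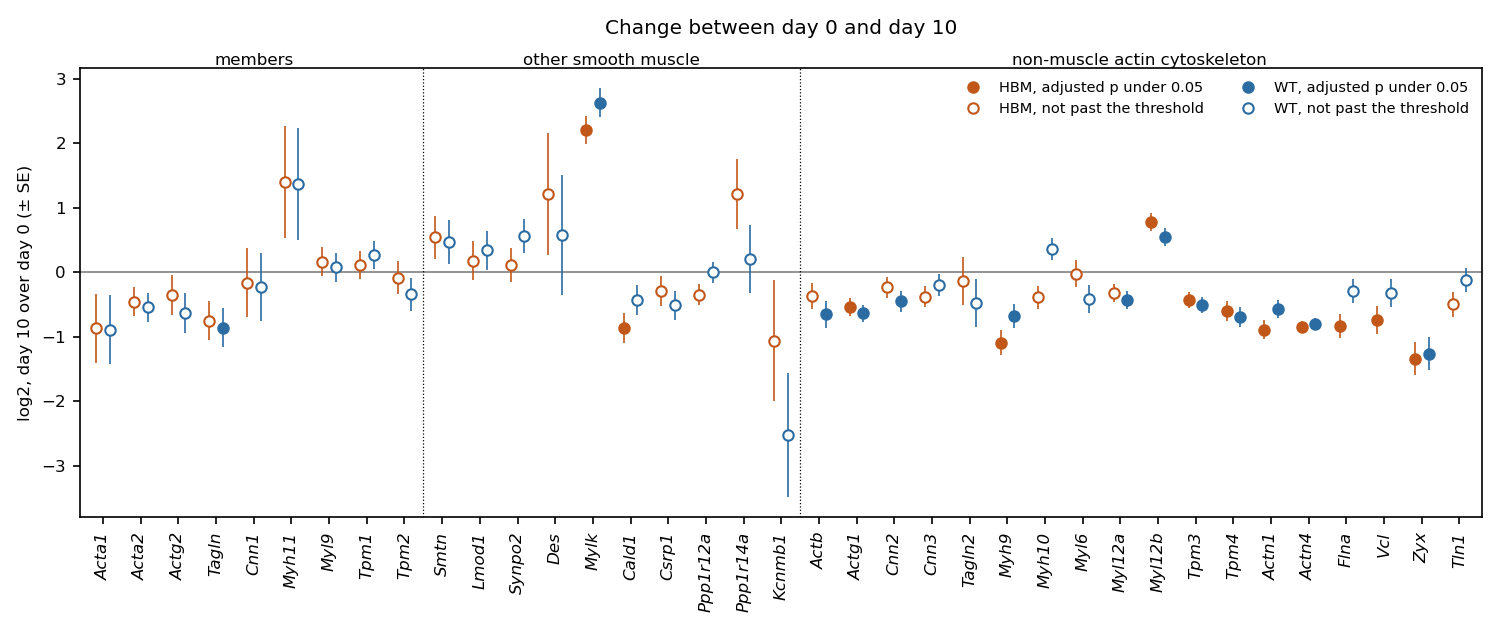
Fitted log2 change of day 10 over day 0 (vertical axis, ± SE) for the 9 genes, 10 other smooth muscle genes and 18 genes of the non-muscle actin cytoskeleton, with HBM in orange left of WT in blue and filled points where the edgeR adjusted p is under 0.05. Tagln in WT is the only filled point among the 9, Mylk is filled well above 0 in both genotypes, and most of the non-muscle genes lie below 0.

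Other genes of the contractile machinery were read in the same fit. Of 10 other smooth muscle genes, 1 rose and 1 fell in HBM and 1 rose and 0 fell in WT. Of all genes, 14.1% rose and 12.4% fell in HBM, and 12.2% rose and 14.1% fell in WT. Mylk, the kinase that phosphorylates Myl9, rose to 116 to 184 CPM on day 10 in HBM, against 30.2 to 33.6 CPM on day 0, by 2.20 ± 0.22 log2 units (edgeR adjusted p = 7.08e-06). In WT it rose to 137 to 217 CPM, against 28.1 to 33.1 CPM, by 2.63 ± 0.22 (adjusted p = 1.56e-06). Caldesmon, Cald1, which restrains myosin on actin, fell by 0.86 ± 0.24 in HBM (adjusted p = 0.0122) and had -0.43 ± 0.23 in WT (adjusted p = 0.183). Of these 10, 2 rose and 1 fell in each genotype without batch 19, where 15.9% of all genes passed in HBM and 13.5% in WT. When each culture was a block, 3 rose in each genotype, and 2 fell in HBM and 1 in WT. In that fit 20.5% of all genes rose and 17.7% fell in HBM, and 19.7% rose and 18.8% fell in WT.

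Genes of the actin cytoskeleton that cells of every kind use made up another list. Of its 18 genes, 9 fell and 1 rose in HBM, beside 12.4% of all genes lower there, and 10 fell and 1 rose in WT, beside 14.1% of all genes lower. The median of the 18 was -0.46 in each genotype. The cross-linker Actn4 was at 423 to 428 CPM on day 10 in HBM, against 681 to 826 CPM on day 0, and fell by 0.84 ± 0.09 (adjusted p = 7.85e-06), and in WT it fell by 0.79 ± 0.09 (adjusted p = 1.27e-05). Actn1 and the non-muscle myosin Myh9 fell by 0.89 ± 0.14 and 1.09 ± 0.19 in HBM (adjusted p = 0.000319 and 0.000661). The focal adhesion protein Zyx fell by 1.26 ± 0.26 in WT (adjusted p = 0.00182). The cytoplasmic actin Actg1 fell by 0.54 ± 0.14 in HBM (adjusted p = 0.00808) and by 0.63 ± 0.14 in WT (adjusted p = 0.00278). For Actb the value was -0.37 ± 0.21 in HBM (adjusted p = 0.198), and in WT it fell by 0.65 ± 0.21 (adjusted p = 0.0272). The light chain Myl12b rose by 0.78 ± 0.14 in HBM (adjusted p = 0.000782) and 0.55 ± 0.14 in WT (adjusted p = 0.00831). With each culture as a block 11 of the 18 fell and 1 rose in HBM, beside 17.7% of all genes lower and 20.5% higher, and 10 fell and 1 rose in WT, beside 18.8% lower and 19.7% higher. Without batch 19 the counts were 6 lower and 1 higher in HBM and 4 lower and 1 higher in WT.

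Of the regulators through which actin and stretch are known to reach these genes, 9 of 10 were tested. In HBM 4 fell and in WT 3 fell, and 0 rose in either genotype by edgeR, while 5 fell in each with the culture as a block. Of all genes, 12.4% fell in HBM and 14.1% in WT by edgeR, and 17.7% and 18.8% with the block. Tead4, a partner of the co-activator Yap1, fell by 2.61 ± 0.36 in HBM (adjusted p = 8.79e-05) and by 2.29 ± 0.36 in WT (adjusted p = 0.00023). Its level was low, 0.749 to 8.55 CPM over all libraries, against 107 to 356 CPM for Tead1. Tead1 fell by 1.32 ± 0.26 and Yap1 by 0.35 ± 0.11 in HBM (adjusted p = 0.00161 and 0.0229), and Tead2 fell by 0.65 ± 0.14 in WT (adjusted p = 0.0034). Srf was at 60.7 to 75.1 CPM on day 10 in HBM, against 61.8 to 96.8 CPM on day 0 (-0.27 ± 0.18, adjusted p = 0.278). In WT it was at 54.5 to 70.6 CPM, against 69.0 to 113 CPM, and fell by 0.50 ± 0.18 (adjusted p = 0.0466). Myocd, myocardin itself, did not pass the filter, with at most 11 counts or 0.286 CPM. Of 7 early targets of these factors 1 fell in each genotype, Fhl2 in HBM (-0.91 ± 0.25, adjusted p = 0.0124) and Ccn2 in WT (-1.85 ± 0.51, adjusted p = 0.0121), and in each genotype 3 fell with the culture as a block and 0 passed without batch 19.

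Markers of other cell types were read over the same step, and their part in the results was not tested. Beside the counts below, 14.1% of all genes rose and 12.4% fell in HBM by edgeR. In WT 12.2% of all genes rose and 14.1% fell. Of 7 endothelial markers the summed level was 2.16 to 7.26 CPM on day 10 in HBM, against 1.38 to 1.80 CPM on day 0, and 2.7 to 7.95 CPM in WT, against 0.625 to 1.47 CPM, with Tie1 at 0 throughout. Of 8 mural cell (pericyte) markers the sum was 406 to 453 CPM in HBM, against 506 to 815 CPM, and 441 to 487 CPM in WT, against 405 to 782 CPM. Pdgfrb, which other mesenchymal cells also express, was at 208 to 563 CPM over all libraries, and the pericyte marker Higd1b was at 0 throughout. In this list 2 fell in HBM (Pdgfrb and Mcam) and 1 in WT (Mcam). Of the 7 tested, however, 4 had positive and 3 had negative values in each genotype. Their median log2 change was 0.11 in HBM and 0.22 in WT, and -0.20 and -0.16 without batch 19.

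The 17 striated muscle markers summed to 8.83 to 33.7 CPM on day 10 in HBM, against 1.91 to 3.66 CPM on day 0, and to 8.0 to 45.1 CPM in WT, against 1.89 to 7.5 CPM. Only 7 of them passed the filter, and 1 rose in each genotype, beside 14.1% of all genes in HBM and 12.2% in WT. This was the perinatal myosin Myh8. It reached 41.9 CPM, while each of the other striated markers was at 2.93 CPM or less in every library. The muscle lineage factors Myf5 and Myf6 were at 0 in every library, and Myod1 was at 0.114 CPM or less. Of 6 macrophage markers 3 rose in HBM and 1 in WT, with sums of 243 to 1845 CPM on day 10 in HBM, against 8.52 to 246 CPM on day 0, and of 392 to 1567 CPM in WT, against 11.2 to 307 CPM. Of 6 adipocyte markers 6 rose in HBM and 3 in WT, with sums of 270.0 to 579 CPM in HBM, against 20.0 to 36.4 CPM, and of 234 to 421 CPM in WT, against 21.3 to 49.8 CPM. Of these 6, Lpl had the highest median over all libraries, 290 CPM, followed by Cebpa at 56.5 CPM. Adipoq and Plin1 had medians of 0.793 and 0.632 CPM. Of 8 osteoblast markers 6 rose in HBM, and in WT 4 rose and 1 fell (Spp1), with sums of 44085 to 96526 CPM in HBM, against 25789 to 37567 CPM, and of 29829 to 52297 CPM in WT, against 20593 to 35673 CPM. These counts differed widely between fits. With the culture as a block 6 of the 6 macrophage markers rose in each genotype, and 0 passed in either without batch 19. The adipocyte markers that rose were 6 in HBM and 5 in WT with the block, and 3 in each without batch 19. The osteoblast markers that rose were 6 in HBM and 5 in WT with the block, where 1 fell in each, and without batch 19 they were 4 in HBM and 1 in WT, where 1 fell. With the block 2 mural markers rose and 2 fell in each genotype, and without batch 19 2 fell in each. The endothelial markers that rose were 2 in each genotype with the block and 0 without batch 19, against 0 in HBM and 1 in WT in the fit of all libraries. Without batch 19 the median log2 change of the macrophage markers was 3.31 in HBM and 2.74 in WT, against 3.70 and 3.03 with all libraries. For the endothelial markers it was 0.96 in HBM and 0.54 in WT, against 1.14 and 0.93. No difference between HBM and WT in these counts was tested.

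The later step tested was day 21 over day 10, and no change of the 9 passed there. Between day 21 and day 10, 0 of the 9 passed edgeR's test or DESeq2 in either genotype and 0 had an unadjusted p under 0.05. Over all genes 0% passed in each, with 535 unadjusted p-values under 0.05 in HBM and 707 in WT, and DESeq2 called 3 in HBM (0.00962%) and 18 in WT (0.0943%). With each culture as a block 0 of the 9 passed, beside 0.0964% of all genes in HBM and 0.554% in WT. Of the 9, Acta1 alone had days that did not overlap, and the share of all genes without overlap was not counted. It had 1.59, 1.91 and 1.81 CPM on day 21 in HBM, against 3.05, 2.0 and 2.0 CPM on day 10 (log2 change -0.41 ± 0.54, adjusted p = 1). In WT it had 1.47, 1.02 and 1.61 CPM, against 3.29, 2.52 and 2.39 CPM (-1.0 ± 0.54, adjusted p = 0.999). Tpm1 was lower on day 21 in 6 of 6 cultures, with -0.41 ± 0.22 in HBM (adjusted p = 1) and -0.31 ± 0.22 in WT (adjusted p = 0.999). The changes with time did not differ between the genotypes past the threshold for any of the 9. For day 10 over day 0 the HBM minus WT difference ran from -0.16 ± 0.30 (Tpm1) to 0.27 ± 0.44 (Actg2), and for day 21 over day 10 from -0.38 ± 1.21 (Myh11) to 0.59 ± 0.76 (Acta1). Over all genes 0% passed for either step, with 537 and 48 unadjusted p-values under 0.05, and DESeq2 called 0.

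HBM was then compared with WT on each day, the question being whether the contractile genes differ in the line with high bone mass. None of the 9 passed edgeR's test on any day or with the days of each culture summed, and DESeq2 called 0 of them. A single one of these tests of members gave an unadjusted p under 0.05, Actg2 on day 21. Over all genes 0% passed in each of these comparisons, with 701, 476, 347 and 356 unadjusted p-values under 0.05 on days 0, 10, 15 and 21 and 555 with the days summed, where DESeq2 called 26 genes (0.132%). With the batch as a block on each day, 0 of the 9 passed, and 0.127%, 1.31%, 0.331% and 0.241% of all genes did on days 0, 10, 15 and 21.

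Actg2 and Cnn1 each lay on one side in 11 of 12 same-batch pairs. For Actg2 on day 0 HBM had 242, 252 and 177 CPM, against 276, 188 and 116 CPM in WT, and on day 10 HBM had 168, 164 and 192 CPM, against 145, 124 and 105 CPM in WT. On day 15 HBM had 199, 131 and 200 CPM, against 157, 98.7 and 115 CPM in WT, and on day 21 HBM had 197, 97.3 and 158 CPM, against 123, 60.8 and 96.2 CPM in WT. Only on day 10 did the groups not overlap, and the share of all genes without overlap was not counted. Within batches HBM was the higher in 11 of 12 pairs, with a median fold of 1.43 and a range of 0.877 to 1.82, the exception being batch 18 on day 0 at 0.877-fold. Pairs of different days share batch numbers, and so possibly cultures, and are not independent. The share of all genes that lay on one side in as many pairs was not counted. The log2 difference was 0.21 ± 0.31, 0.48 ± 0.31, 0.51 ± 0.31 and 0.69 ± 0.31 on days 0, 10, 15 and 21, with adjusted p from 0.964 to 1. On day 21 its 95% interval ran from 0.04 to 1.34, with an unadjusted p of 0.0376 and an adjusted p of 1 by edgeR. With the days summed it was 0.43 ± 0.21, 95% interval -0.09 to 0.95 and adjusted p = 1. With the batch as a block the adjusted p was 0.149 with the days summed and 0.0838 on day 21, so neither passed.

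Cnn1 differed the other way. It was lower in HBM in 11 of 12 pairs with a median fold of 0.780 and a range of 0.623 to 1.14, the exception being batch 21 on day 0. On day 21 HBM had 80.5, 64.2 and 110.3 CPM, against 129, 73.3 and 144 CPM in WT, and the groups overlapped on every day. The log2 difference was -0.39 ± 0.53, -0.32 ± 0.53, -0.27 ± 0.53 and -0.44 ± 0.53 on days 0, 10, 15 and 21. With the days summed it was -0.31 ± 0.14, 95% interval -0.64 to 0.02, with an adjusted p of 1, or 0.202 with the batch as a block. Myl9 was lower in HBM in 10 of 12 pairs, with a median fold of 0.910 and a summed difference of -0.12 ± 0.11 (95% interval -0.38 to 0.14, adjusted p = 1).

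For Acta2 and Tagln, the most abundant of the set per kilobase, HBM and WT were close. With the days summed, Acta2 differed by -0.01 ± 0.15 (95% interval -0.36 to 0.35) and Tagln by 0.02 ± 0.15 (-0.34 to 0.38), and with the batch as a block the differences were -0.01 ± 0.09 and 0.03 ± 0.08 (adjusted p = 0.979 and 0.900). Acta2 was higher in HBM in 6 of 12 pairs and Tagln in 7. Tpm1 and Tpm2 differed by -0.04 ± 0.19 (-0.50 to 0.42) and -0.01 ± 0.10 (-0.26 to 0.24). Myh11 and Acta1 were bounded least closely without a block, at -0.08 ± 0.66 (-1.69 to 1.54) and 0.03 ± 0.26 (-0.59 to 0.65). With the batch as a block they differed by 0.03 ± 0.24 and 0.04 ± 0.14 (edgeR adjusted p = 0.973 and 0.912). None of the genes in the other lists passed between the genotypes without a block. With the batch as a block the osteoblast markers Sp7, Ibsp, Bglap and Spp1 were higher in HBM on day 10, Sp7 and Col1a1 on day 15, and Ccn2 was lower in HBM on day 0 (-0.93 ± 0.15, adjusted p = 0.0469). On day 10 the 8 osteoblast markers, mostly Col1a1, summed to 44085 to 96526 CPM in HBM and 29829 to 52297 CPM in WT. Their part in the values of Actg2 and Cnn1 was not tested.

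**Figure D3:**
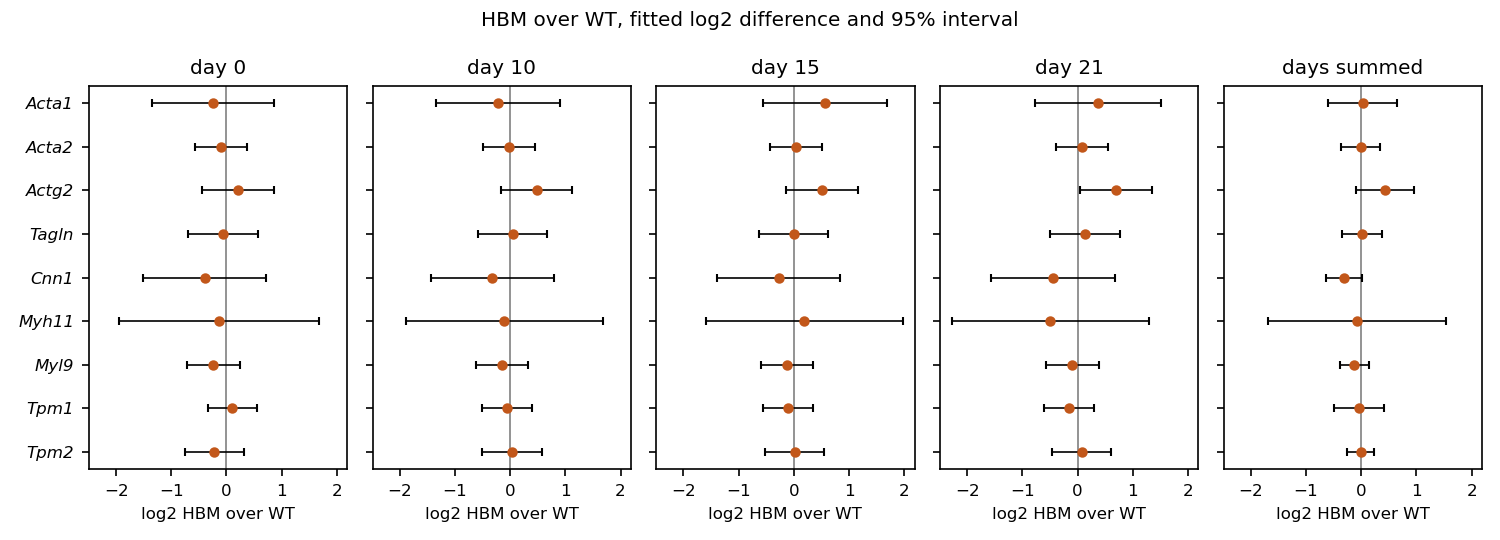
Fitted log2 difference of HBM over WT (horizontal axis) with its 95% interval for each of the 9 genes on each day and with the days of each culture summed. All intervals span 0 except that of Actg2 on day 21, from 0.04 to 1.34 before adjustment over all genes, and those of Myh11 are the widest.

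The sum of squares of log2 CPM over the 24 libraries was split into shares, as a description. The genotype share was 23.5% for Actg2, whose batch share was 18.1% and whose share of day by batch was 18.5%. It was 7.71% for Cnn1, 6.81% for Myl9 and under 1% for each of the others, beside a median of 1.91% over all genes tested. The share of day was the largest for Acta2 at 49.3%, Tagln at 49.0%, Acta1 at 40.8%, Myh11 at 37.4% and Actg2 at 32.2%, beside a median of 34.9% over all genes. For Cnn1, Tpm2 and Myl9 the interaction of day with batch was the largest share, at 84.9%, 65.0% and 61.7%, beside a median of 15.5%. For Tpm1 it was the batch itself, at 51.3%, beside a median of 17.1%.

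**Figure D4:**
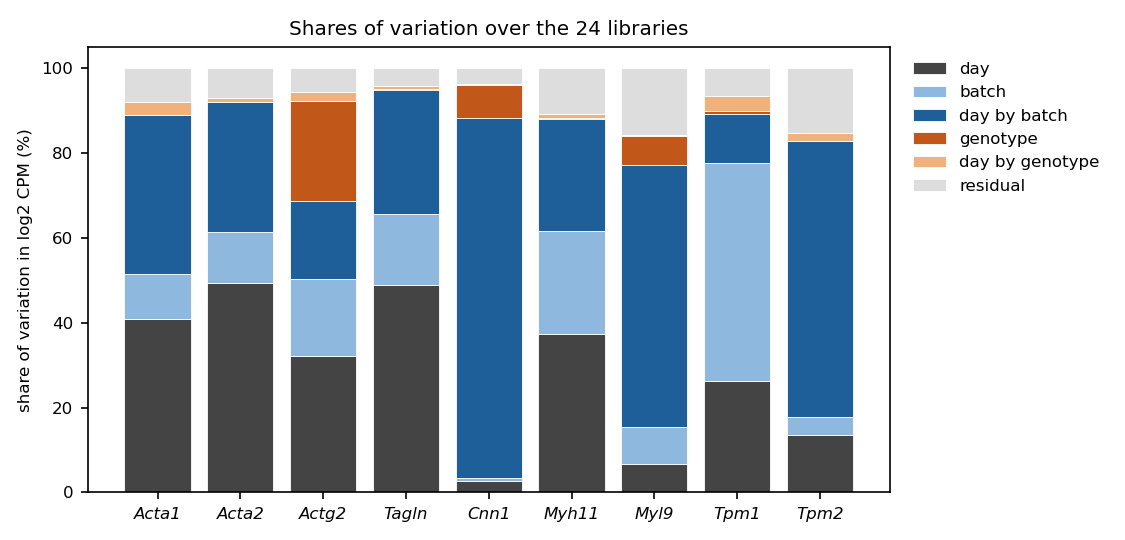
Share of the variation in log2 CPM over the 24 libraries (vertical axis, %) due to day, batch, day by batch, genotype, day by genotype and residual, as stacked bars for the 9 genes. The genotype segment is widest for Actg2 at 23.5%, and day by batch fills 84.9% of the bar of Cnn1.

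The order of the batches differed between day 0 and the later days. On day 0, batch 19 was the highest of the 3 libraries for 7 of the 9 genes in HBM and 6 in WT, and batch 21 was the lowest for 5 in HBM and 9 in WT. On days 10, 15 and 21, batch 19 was the lowest for 7, 9 and 8 of the 9 in HBM and for 6, 8 and 9 in WT. Myh11 on day 0 ran otherwise, with batch 18 at 4.10 CPM and batch 19 at 16.4 CPM in HBM, and batch 18 at 16.9 CPM and batch 19 at 5.66 CPM in WT. Over all days, deviations from the mean of the group ran together in the HBM and WT libraries of the same batch and day, with Pearson's r over 12 pairs from 0.668 for Myh11 to 0.923 for Cnn1. As these pairs share a batch, the r values are given as descriptions. Of the libraries, WT batch 19 on day 0 had the highest mean deviation from its day over the 9 genes, 1.25 SD, and WT batch 21 on day 0 the lowest, -1.44 SD. The cartilage collagen Col2a1 was highest in the same day 0 libraries of batch 19, and Xist also differed between batches. The part of either in the values of the 9 genes was not tested.

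**Figure D5:**
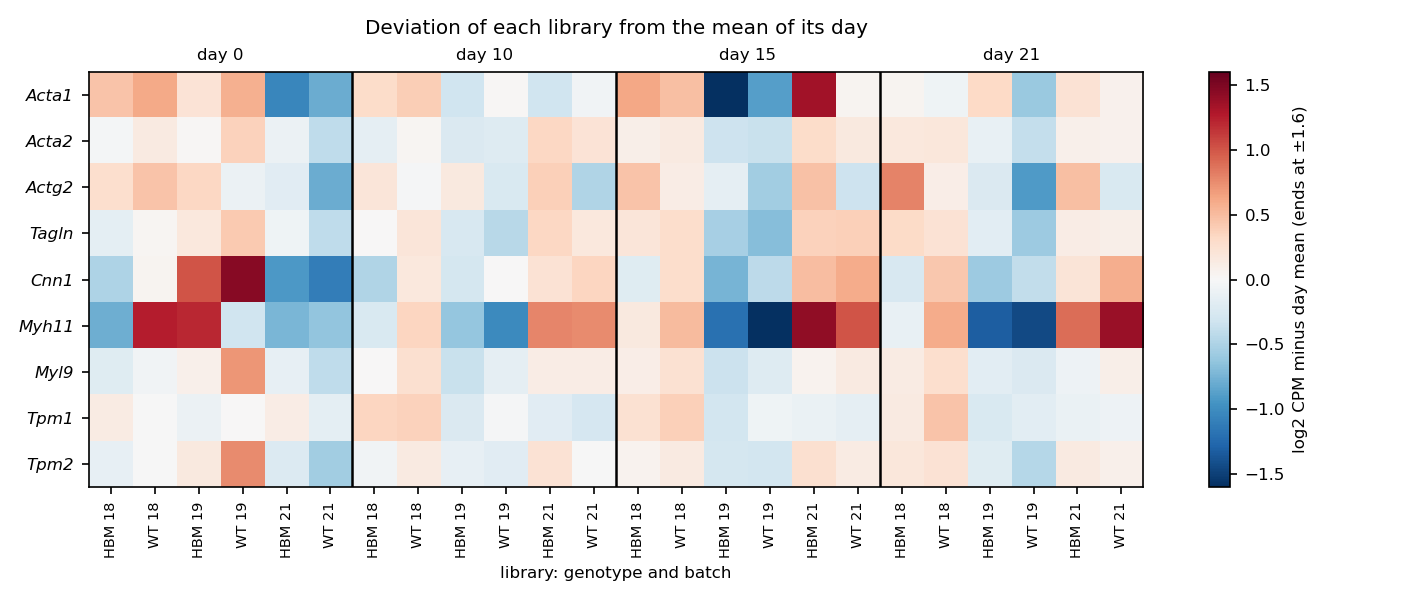
Deviation of each library from the mean of its day in log2 CPM (colour, ends at ±1.6, with 1 value of Acta1 and 1 of Myh11 past the end) for the 9 genes (rows) and the 24 libraries in the order HBM then WT within each batch and day (columns). Most columns of the same batch and day look alike in HBM and WT, and the columns of batch 19 are mostly red on day 0 and mostly blue on later days.

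Within days, most of the 9 varied together. Over the 24 libraries the deviations of Acta2 and Tagln from the mean of the day had r = 0.935, those of Myl9 and Tpm2 0.906, and those of Acta2 and Tpm2 0.890. Tpm1 stood aside, with a median r of 0.312 to the other members and 0.0626 to Cnn1. Among 9535 genes with a mean of 10 CPM or more, the 6 others whose deviations were most like the mean of the members were Ccn5 (r = 0.920), Pdlim7 (0.911), Pdpn (0.908), Parp3 (0.907), Gm2115 (0.883) and Ddah1 (0.874), where the median over all genes compared was -0.01. Pdlim7 codes for a protein that binds actin filaments through a PDZ and LIM domains, Ccn5 for a secreted matricellular protein and Pdpn for a membrane glycoprotein. These r values are over libraries that share batches, cultures and scaling.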

How the data were processed

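Bulk RNA-seq of pooled newborn calvarial osteoblast cultures was analysed from the deposited table of counts per gene, which are not normalized and are whole numbers, per the file headers and the values. The tools named in the submitters' processing notes are cutadapt 3.4, STAR 2.7.8a and, from Subread 2.0.1, featureCounts, and the build is mm10. The annotation release, strand setting and handling of multi-mapped reads were not given in the sources used here. Of 54232 rows, 54164 matched GENCODE M21 (mm10), which gave symbols, coordinates and exon lengths, and the other 68 held 0.00337% or less of each library's counts. Reads carry no molecular identifiers.

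Counts were tested in R 4.3.3 with the quasi-likelihood test of edgeR 4.0.16 after its filter on low counts and TMM scaling (factors 0.866 to 1.11), in 1 fit of 8 groups of 3 libraries, with Benjamini-Hochberg adjustment over all 16592 genes and a threshold of 0.05. For a second comparison of genotypes, the libraries of the same genotype and batch number, taken as a culture, were added up over the 4 days (18387 genes). CPM are counts relative to the scaled library size. Correlations and the shares of variation over all genes used log2(CPM + 0.5). Scripts were tested on simulated data.

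The numbers 18, 19 and 21 pair the samples: they are the labels' batch tag, and on each day HBM and WT libraries of the same number deviated together over all genes (r from 0.606 to 0.853, against -0.728 to 0.162 for other numbers). Later days of the same number and genotype correlated at 0.444 to 0.858 and day 0 with later days at -0.0667 to 0.463. The biological coefficient of variation was 0.327 with no block, 0.131 with a batch block by day and 0.208 with a culture block. P-values of the fit of 8 groups measure the spread between libraries of a group, and that fit treats the days as independent. With the days summed and no block they measure the spread between pooled cultures. With a block they measure the spread left after the batch or culture is taken out.

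The 9 members and the other gene lists were chosen with earlier results of these data known. Named were all 9 members, Srf, Myocd, Actb and Actg1, up to 3 genes with the smallest p past the threshold in each direction of each other list, and the 6 genes most like the members. A few more list genes were named after their values were seen. Alternatives were DESeq2 1.42.0 and its size factors, no filter, only the groups compared, replicate blocks, each library left out and, added after the data were seen, no batch 19 libraries. Day 15 entered the comparison of genotypes and was otherwise described. No protein sequences were used here.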

Additional observations from a re-analysis of the deposited data

Results flagged for a closer look

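Acta1 was the only one of the 9 genes in which every same-batch pair lay on one side of 0 on some days and on the other side on another day. The mean log2 ratio of HBM over WT was -0.252 on day 0 and -0.235 on day 10, when HBM was the lower in 3 of 3 pairs, and 0.399 on day 21, when HBM was the higher in 3 of 3 pairs. On day 15 the pairs lay on both sides of 0, at 0.13, -0.72 and 1.30 in batches 18, 19 and 21. The difference between day 21 and day 0 was not tested. Between day 21 and day 10 edgeR's interaction term was 0.59 ± 0.76 with an adjusted p of 1, and Acta1 was the least abundant of the set, with 32 to 284 counts a library.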

How the results depend on the processing

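Tagln in WT between day 10 and day 0 was 1 member called among 9, and that count was 0 with no filter on low counts (log2 change -0.86, adjusted p = 0.0697) or only the groups compared (-0.85, 0.158), where the change itself stayed close to the reported -0.86, 2 with the culture as a replicate block, and 0 to 3 with a library left out. With no batch 19 libraries the count was 1 in WT, Myl9 in place of Tagln, and 1 in HBM, where the reported count was 0, and the replicate block by culture also gave 1 in HBM. In every other comparison and alternative run, 0 of the 9 were called. The blocks changed no other call of a member, and the 1 batch term for all days called 0 of the 9 between genotypes. Of 99 member values, 98 were not past the threshold, and 65 of these changed sign under some alternative, 6 of them under a planned one that left no library out and 23 without batch 19. The largest such value was 0.57 on the log2 scale, and 0 called values changed sign.

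Counts over all genes moved by more than 1.5 times in these cases. Between genotypes the batch as a block by day called 21, 217, 55 and 40 genes on days 0, 10, 15 and 21, against 0, and DESeq2 called 26 with the days summed, against 0. For day 10 over day 0 in HBM, 4404 became 2647 without batch 19, 2087 with only the groups compared and 2809 without the day 0 library of batch 18. In WT, 4349 became 2236, 472 and, without the day 10 library of batch 19, 2866. For day 21 over day 10, DESeq2 called 3 in HBM and 18 in WT and the culture block 16 and 92, against 0. Fits of fewer libraries have fewer degrees of freedom, and other causes were not tested. Acta1, with 32 to 284 counts a library, had the fewest counts of the 9.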
